A study of Homo sapiens with 32 samples.

Results

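The 6 genes *RNGTT*, *RNMT*, *CMTR1*, *NCBP1*, *NCBP2* and *SRRT*, which build the messenger RNA cap or bind it in the nucleus, were followed through a pooled CRISPR-knockout screen by the reads of every single guide RNA (sgRNA) listed under their Ensembl identifiers. This took 24 of the 74987 sgRNAs in the count table and 6 of the 18638 genes, with 4 sgRNAs per gene. The genes were chosen by name with the high versus low result of the screen already known, so their values in that contrast are given without p-values, and calls counted there are a description and no test of these genes. Earlier results of these data were known when the genes were chosen, and the p-values given for other contrasts do not allow for that choice.

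The cap is a methylated guanosine that is joined to the first nucleotide of RNA polymerase II transcripts soon after synthesis starts. RNGTT removes a phosphate from the end of the new transcript and adds the guanosine, RNMT methylates that guanosine, and CMTR1 methylates the ribose of the first transcribed nucleotide. In the nucleus NCBP2 holds the cap and NCBP1 is its large partner in the cap-binding complex, and SRRT, also called ARS2, joins this complex to the factors that process, export or degrade the transcript.

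The cells were RKO, an established colorectal cancer line of genotype WT in the labels, and all of them carried Cas9 and Kinprola_PKA, a recorder of protein kinase A activity that contains EGFP, as lentiviral transgenes. After transduction with the sgRNAs of HD CRISPR sublibrary A, the cells took up the dye CPY-CA on day 6 and were divided by their CPY-CA/EGFP ratio into low (around 25%), medium (around 50%, basal in the labels) and high (around 25%) populations, and a day 0 control (T0) was sequenced beside them. There were 2 screens, labelled replicates 2 and 3, with 1 library per population and 1 T0 library each. The study states that the screen was performed independently both times. The gene p-values and SEs rest on the spread between 2 screens, moderated by limma towards a spread shared over all genes. They therefore do not measure how closely the 2 screens of a single gene matched. How well each sgRNA removed its protein was not measured by these reads.

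The 8 libraries held 23369720 to 31777138 reads, with medians of 260 to 356 reads per sgRNA and 82 to 166 sgRNAs without a read. Reads are given below after scaling to the mean library total (scaled reads), and a log2 fold change is the difference of log2(scaled reads + 1) within a screen, averaged over the sgRNAs of a gene. No molecular identifiers were read, so PCR copies cannot be told from independent molecules, and sgRNAs against 1 gene share a target and are not replicates of a condition. As background, the 278 sgRNAs with no human target (nontargeting, LacZ and luciferase) had a mean log2 fold change of −0.11 in high versus low, with quantiles of −0.47 at 5% and 0.26 at 95%.

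Knockout of the capping enzyme *RNGTT* gave the largest difference between the gates among these genes. *RNGTT* (ENSG00000111880) lies on the minus strand of chromosome 6 from 88609897 to 88963618 (GRCh38) and has 16 exons in its canonical transcript. Its 4 sgRNAs together had 2145 scaled reads in T0, 489 in low, 1126 in medium and 2990 in high in replicate 2. In replicate 3 they had 2109 scaled reads in T0, 351 in low, 820 in medium and 3330 in high. In both screens the reads thus increased in steps across the gates, and the high libraries exceeded T0 while the low and medium libraries were below it.

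The order low, medium, high held for each *RNGTT* sgRNA in each screen. The sgRNA with the most reads, sgRNA 4, had 871.5 scaled reads in T0, 75.8 in low, 354 in medium and 1028.5 in high in replicate 2, and 787 in T0, 101 in low, 190 in medium and 1167 in high in replicate 3. The sgRNA with the smallest shift, sgRNA 2, had 551 scaled reads in T0, 252 in low, 418 in medium and 906.5 in high in replicate 2, and 670.2 in T0, 192 in low, 366 in medium and 1071 in high in replicate 3. The mean log2 fold changes of the 4 sgRNAs in high versus low were 3.39, 2.16, 3.46 and 3.63. All 4 were above the highest value of any sgRNA without a target, 2.06, which no sgRNA against the other 5 genes reached. Over the gene the log2 fold change was 2.75 in replicate 2 and 3.57 in replicate 3, a mean of 3.16 ± 0.58 (SD, n = 2 screens) or 8.94-fold, at rank 8 of 18638 genes.

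**Figure D1:**
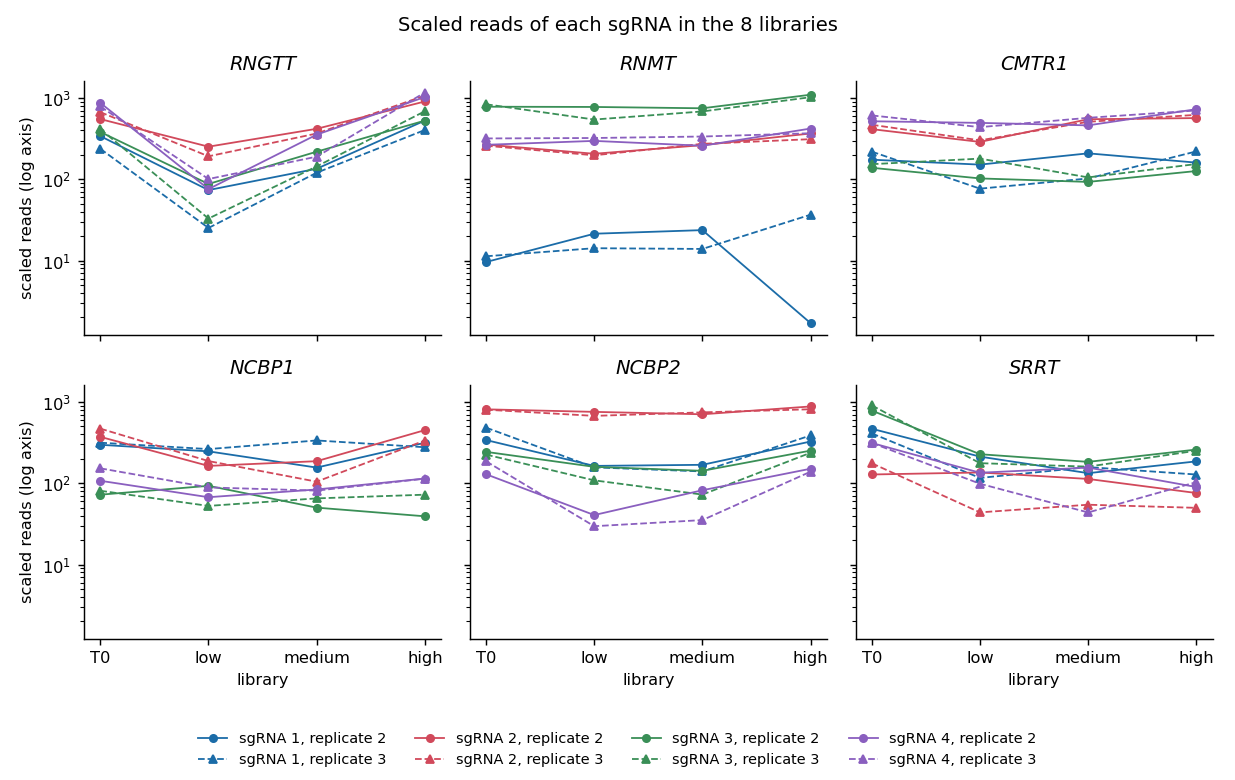
Scaled reads (log axis) of each of the 4 sgRNAs per gene in the T0, low, medium and high libraries, with circles and solid lines for replicate 2 and triangles and dashed lines for replicate 3. All *RNGTT* sgRNAs are lowest in the low libraries and highest among the sorted populations in the high libraries, *SRRT* sgRNAs are below T0 in nearly every sorted library, and *RNMT* sgRNA 1 has at most 36.7 scaled reads in any library.

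The 2 other cap-forming enzymes had smaller differences. *RNMT* (ENSG00000101654) lies on the plus strand of chromosome 18 from 13726660 to 13764556, where its first bases overlap the opposite-strand gene *FAM210A*, and has 12 exons. Its sgRNAs summed to 1325 scaled reads in T0, 1301 in low, 1293 in medium and 1887 in high in replicate 2, and to 1426 in T0, 1077 in low, 1307 in medium and 1741 in high in replicate 3. The high libraries were therefore the highest of all in both screens. The gene's log2 fold change in high versus low was −0.30 in replicate 2 and 0.77 in replicate 3, with a mean of 0.23 ± 0.75 (SD, n = 2 screens). The difference in sign rested on sgRNA 1, which had 1.7 scaled reads in the high library and 21.4 in the low library of replicate 2, and 36.7 in the high and 14.2 in the low library of replicate 3. The other 3 sgRNAs had positive values in both screens, with means of 0.74, 0.71 and 0.35. With sgRNAs of at least 50 scaled reads the gene's value was 0.60.

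*CMTR1* (ENSG00000137200) lies on the plus strand of chromosome 6 from 37433219 to 37482827 and has 24 exons. Its sgRNAs summed to 1245 scaled reads in T0, 1037 in low, 1311 in medium and 1582 in high in replicate 2, and to 1452 in T0, 996 in low, 1289 in medium and 1698 in high in replicate 3. Low was the lowest and high the highest library in both screens. The log2 fold change in high versus low was 0.48 and 0.75 in replicates 2 and 3, a mean of 0.61 ± 0.19 (SD, n = 2 screens). The sgRNAs differed in how closely the screens matched. sgRNA 2 had 0.97 in replicate 2 and 1.04 in replicate 3, sgRNA 1 had 0.08 and 1.51, and sgRNA 3 had values of opposite sign, 0.30 and −0.22.

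Of the cap-binding pair, *NCBP2* had the larger shift. *NCBP2* (ENSG00000114503) lies on the minus strand of chromosome 3 from 196935402 to 196942594 and has 4 exons and 468 coding bases, the shortest coding sequence of the 6 genes. Its sgRNAs summed to 1523 scaled reads in T0, 1118 in low, 1098 in medium and 1609 in high in replicate 2, and to 1698 in T0, 969 in low, 992 in medium and 1576 in high in replicate 3. Low and medium were close to each other in both screens and only the high libraries were near T0. The log2 fold change in high versus low was 0.94 and 1.22 in replicates 2 and 3, a mean of 1.08 ± 0.20 (SD, n = 2 screens).

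This sum hides a difference between the *NCBP2* sgRNAs. The sgRNA with the most reads, sgRNA 2, had 811 scaled reads in T0, 755 in low, 705 in medium and 880.3 in high in replicate 2, and 803 in T0, 674 in low, 744.5 in medium and 813 in high in replicate 3. The one with the fewest, sgRNA 4, had 129 scaled reads in T0, 40.6 in low, 82 in medium and 151 in high in replicate 2, and 186 in T0, 29.6 in low, 35.2 in medium and 139 in high in replicate 3. Their mean log2 fold changes in high versus low were 0.25 for sgRNA 2 and 2.03 for sgRNA 4, with 1.15 and 0.89 for sgRNAs 1 and 3. Only the value of sgRNA 2 lay inside the 5% to 95% range of the sgRNAs without a target (−0.47 to 0.26). All 4 sgRNAs were under the maximum of those sgRNAs (2.06), sgRNA 4 just under it.

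*NCBP1* (ENSG00000136937) lies on the plus strand of chromosome 9 from 97633668 to 97673748 and has 23 exons. Its sgRNAs had the lowest T0 totals of the set, with 849 scaled reads in T0, 570 in low, 476 in medium and 918 in high in replicate 2, and 1018 in T0, 592 in low, 587 in medium and 799 in high in replicate 3. As for *NCBP2*, low and medium were close and high was above both. The log2 fold change in high versus low was 0.33 and 0.43 in replicates 2 and 3, a mean of 0.38 ± 0.07 (SD, n = 2 screens). The close match of the screens held for the mean over sgRNAs more than for the sgRNAs themselves. sgRNA 2 had 1.46 in replicate 2 and 0.84 in replicate 3, whereas sgRNA 3, with 39.2 to 92.9 scaled reads in any library, had −1.22 and 0.45.

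Knockout of *SRRT* had values on both sides of 0 between the gates and low reads in all of them. *SRRT* (ENSG00000087087) lies on the plus strand of chromosome 7 from 100875103 to 100888664 and has 20 exons. Its sgRNAs summed to 1693 scaled reads in T0, 710 in low, 585 in medium and 611 in high in replicate 2, and to 1807 in T0, 435 in low, 416 in medium and 532 in high in replicate 3. All 3 sorted libraries were far below T0 and differed less from each other than from T0. The log2 fold change in high versus low was −0.35 and 0.22 in replicates 2 and 3, a mean of −0.07 ± 0.41 (SD, n = 2 screens). The sign of this mean turned with the scaling, to 0.01 when libraries were centred on the sgRNAs without a target.

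In order of their high versus low values the genes were *RNGTT*, *NCBP2*, *CMTR1*, *NCBP1*, *RNMT* and *SRRT*. The values of the 2 screens did not overlap between neighbors from *RNGTT* down to *NCBP1*, but those of *NCBP1*, *RNMT* and *SRRT* overlapped. The means of single sgRNAs overlapped among *NCBP2* (0.25 to 2.03), *CMTR1* (0.04 to 1.01) and *NCBP1* (−0.39 to 1.15). The order rests on 2 screens and was not tested. In the limma fit over all genes at an adjusted p under 0.05, 3 of the 6 genes were called higher in high than in low (*RNGTT*, *NCBP2* and *CMTR1*), where 5.25% of all genes were called higher, and none was called lower, where 2.73% of all genes were. Since the genes were chosen with this contrast known, nothing is read from that count. Libraries were left out in a limma fit on single libraries with the screen as a term, which called the same 3 genes when complete. Without the low library of replicate 2, or without that of replicate 3, only *RNGTT* was called in it, and without the high library of replicate 3 *RNGTT* and *NCBP2* were. Without the high library of replicate 2 that fit added *RNMT*, at 0.73. With the median over sgRNAs, or with sgRNAs of at least 50 scaled reads, 5 of the 6 genes were called, *RNMT* and *NCBP1* being added. When centred on the sgRNAs without a target, or with a pseudocount of 5 reads, 4 were called, *NCBP1* being added. Over all genes 979 were called higher and 508 lower, and centring on the sgRNAs without a target gave 1192 higher and 355 lower.

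The reads of the sorted libraries, weighted by the size of the gates, give an estimate of how the cells of each knockout were spread. For *RNGTT* 52.2% of the cells in replicate 2 and 62.6% in replicate 3 were in the high gate, against 23.8% and 24.0% for the sgRNAs without a target. In the low gate these shares were 8.54% and 6.59% for *RNGTT*, against 25.3% and 25.6% for the sgRNAs without a target. The share in the high gate was 32.7% and 34.8% for *NCBP2*, 37.6% and 31.2% for *NCBP1*, 32.7% and 32.1% for *RNMT*, 30.2% and 32.2% for *CMTR1*, and 24.5% and 29.6% for *SRRT* in replicates 2 and 3. All of these were above the value for the sgRNAs without a target in the same screen, by the least for *SRRT* in replicate 2. The sgRNAs without a target were themselves under the gate's share of around 25% of all cells, as was *SRRT* in replicate 2 at 24.5%. The shares sum reads over sgRNAs and so follow the sgRNAs with the most reads, unlike the log2 fold changes, which weight the 4 sgRNAs equally.

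**Figure D2:**
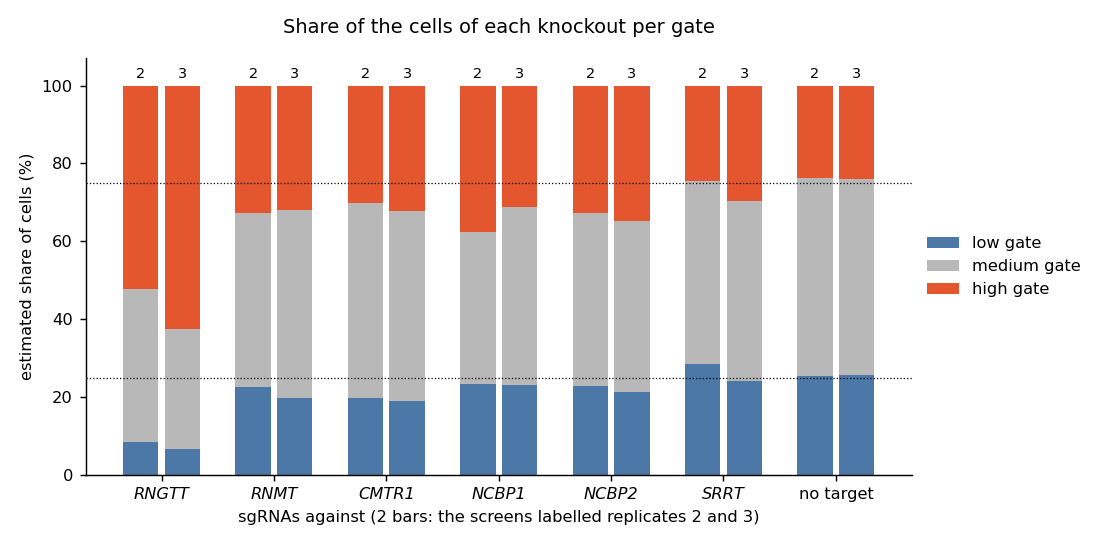
Estimated share of the cells (%) of each knockout in the low, medium and high gates, with 1 bar for each screen, labelled replicates 2 and 3, and dotted lines at the gate limits of 25% and 75% of all cells. *RNGTT* knockouts have 52.2% and 62.6% of their cells in the high gate, and the sgRNAs without a target have 23.8% and 24.0%.

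Comparison with the medium libraries splits high versus low into a step on each side. A value near 0 in low versus medium means that low and medium reads changed alike, not that the low gate kept its share. The same low and high libraries chose the genes, so these values too are a description. *RNGTT* was displaced on both sides, with a log2 fold change of −1.28 and −1.54 in low versus medium and of 1.47 and 2.04 in high versus medium in replicates 2 and 3. It was the only one of the 6 genes called in low versus medium, where 1.54% of all genes were called lower and 1.18% higher. The fit on single libraries kept that call when complete (−1.41) and lost it when a low library was left out, that of replicate 2 (−1.68) or that of replicate 3 (−1.14). *NCBP2* differed from medium on the high side, with 0.74 and 1.31 in high versus medium but −0.20 and 0.09 in low versus medium. Its share in the low gate was 22.7% and 21.4% in replicates 2 and 3, and in the medium gate 44.6% and 43.8%. Both were under the shares of the sgRNAs without a target, 25.3% and 25.6% in low and 50.8% and 50.4% in medium. Both *RNGTT* and *NCBP2* were called in high versus medium, where 1.7% of all genes were called higher and 0.0966% lower. *NCBP1* was added by centring on the sgRNAs without a target, a pseudocount of 5 reads or sgRNAs of at least 50 reads. The complete fits on libraries added it too, and the median over sgRNAs added it and *RNMT*. It was not added by TMM scaling or in the fits without 1 library. *NCBP1* had means of 0.55 in high versus medium and 0.17 in low versus medium, *CMTR1* had 0.37 and −0.24, *RNMT* 0.10 and −0.13, and *SRRT* 0.13 and 0.20.

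Low plus high minus 2 times medium adds the differences of low and of high from medium, with weights orthogonal to high minus low, and it was tested. None of the 6 genes passed in limma (adjusted p under 0.05 over all entries), and only 7 of 18638 genes did, or 0.0376%, against 1279 genes at an unadjusted p under 0.05. The largest values among the cap genes were those of the cap-binding pair. *NCBP2* had 0.55 and 1.40 in replicates 2 and 3, a mean of 0.97 (SE 0.24, limma adjusted p = 0.352, unadjusted p = 0.00525). *NCBP1* had 0.85 and 0.59, a mean of 0.72 (SE 0.18, limma adjusted p = 0.364, unadjusted p = 0.00569). Both were positive in both screens, as were *RNGTT* with a mean of 0.35 and *SRRT* with 0.33, while *CMTR1* (0.13) and *RNMT* (−0.03) changed sign between the screens. With the median over sgRNAs the value of *NCBP2* was 1.16 and passed (limma adjusted p = 0.00791), the single setting of those run in which a cap gene did.

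The comparison with T0 asks which knockouts were fewer on day 6 than on day 0 over all gates together. It uses the same sorted libraries, with equal weights on high and low. The reads are averaged before log2 is taken, so the comparison is not orthogonal to high minus low, which chose the genes. Its p-values do not allow for the choice of the genes with earlier results known. The scaled reads of high, medium and low were averaged with weights of 25%, 50% and 25% into a day 6 pool. In all, 4 of the 6 genes were lower in the pool than in T0 in limma at an adjusted p under 0.05 (*SRRT*, *NCBP2*, *RNGTT* and *NCBP1*), where 8.35% of all genes were lower, and none was higher, where 2.54% of all genes were. The median log2 fold change of the 6 genes was −0.56, against 0.04 over all genes and a mean of 0.24 for the sgRNAs without a target. Whether less growth, death of cells or another loss lay behind the lower reads cannot be told apart in these counts.

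*SRRT* fell furthest. Its pool held 623 scaled reads in replicate 2, against 1693 in T0, and 450 in replicate 3, against 1807 in T0, which is 36.8% and 24.9% of T0. The log2 fold change was −1.20 and −1.92, a mean of −1.56 (SD of the 2 screens 0.51, moderated SE 0.12, limma adjusted p = 6.08e-11), at rank 323 from the lowest of all genes. Its 4 sgRNAs had means of −1.52, −1.0, −2.07 and −1.66, all below the lowest sgRNA without a target (−0.60). The sgRNA with the fewest reads, sgRNA 2, was uneven between the screens, with −0.23 in replicate 2 and −1.78 in replicate 3.

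The 2 genes of the cap-binding complex fell less than *SRRT*, and the screens of *SRRT* and *NCBP2* did not overlap. *NCBP2* had 1231 scaled reads in the pool and 1523 in T0 in replicate 2, and 1132 in the pool and 1698 in T0 in replicate 3. Its log2 fold change was −0.46 and −0.96, a mean of −0.71 (SD of the 2 screens 0.36, moderated SE 0.11, limma adjusted p = 1.55e-05). As between the gates, sgRNA 2 stood apart, with −0.10 against −0.97, −0.68 and −1.08 for sgRNAs 1, 3 and 4. *NCBP1* had 610 scaled reads in the pool and 849 in T0 in replicate 2, and 641 in the pool and 1018 in T0 in replicate 3, with a mean log2 fold change of −0.52 (SE 0.10, limma adjusted p = 0.000306). All 8 values of its 4 sgRNAs in the 2 screens were below 0. The fit on single libraries, which weights log2 values rather than reads, called both genes when complete, *NCBP2* at −0.82 (limma adjusted p = 0.00339) and *NCBP1* at −0.58 (limma adjusted p = 0.00146). Both calls were lost in it without the T0 library of replicate 3, where *NCBP2* had −0.56 (limma adjusted p = 0.118) and *NCBP1* −0.47 (limma adjusted p = 0.0607).

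Among the enzymes *RNGTT* fell and the methyltransferases did not pass the test. *RNGTT* had 1433 scaled reads in the pool and 2145 in T0 in replicate 2, and 1330 in the pool and 2109 in T0 in replicate 3, so that the pool held 66.8% and 63.1% of T0. The log2 fold change was −0.57 and −0.64, a mean of −0.60 (SE 0.09, limma adjusted p = 2.54e-05). The size of this fall depended on how the gates were averaged. With the weighted mean of log2 values, which is lowered by an uneven spread over the gates, it was −1.07, and it was −1.15 with the medium libraries alone. *CMTR1* had −0.02 and −0.25, a mean of −0.14 (limma adjusted p = 0.441), and *RNMT* had 0.29 and 0.17, a mean of 0.23 (limma adjusted p = 0.132). Its sgRNA 1, with few reads, had 0.78. Without that sgRNA, at a minimum of 50 scaled reads, *RNMT* had 0.05. Centring the libraries on the sgRNAs without a target shifted the median of all genes to −0.18 and gave 24 genes higher and 4826 lower, against 473 and 1556 with the main scaling. Under it *CMTR1* passed as well, at −0.35 (limma adjusted p = 0.026), *RNMT* had 0.02, and the 4 called genes kept their calls.

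Single sgRNAs were also counted with edgeR's quasi-likelihood test on the deposited counts. In high versus low, which chose the genes, 12 of the 24 sgRNAs were called higher, where 2.95% of all sgRNAs against genes were, and 0 were called lower, where 1.55% were. These were all 4 of *RNGTT*, 3 of *NCBP2*, 2 each of *RNMT* and *CMTR1*, 1 of *NCBP1* and none of *SRRT*. In the sorted populations versus T0, 12 of the 24 were lower, where 6.29% of all sgRNAs against genes were, and none was higher, where 1.01% were. Here all 4 sgRNAs of *RNGTT* and all 4 of *SRRT* were lower, as were 3 of *NCBP2* and 1 of *NCBP1*. This contrast weights log2 values, so an uneven spread over the gates lowers it. *RNGTT* sgRNA 2 had −0.52 in it and −0.28 in the day 6 pool of reads. In that pool 10 of the 24 sgRNAs were below the lowest sgRNA without a target, 4 of *SRRT*, 3 of *NCBP2*, 2 of *RNGTT* and 1 of *NCBP1*. For *NCBP2* and *NCBP1* the sgRNAs called were the same ones in both tests, sgRNAs 1, 3 and 4 of *NCBP2* and sgRNA 2 of *NCBP1*. Both tests share the sorted libraries, so this is a description. Without 1 library at a time the sgRNAs called were 8 to 12 in each test, the fewest without the low or the high library of replicate 3 in high versus low and without the T0 library of replicate 3 against T0.

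**Figure D3:**
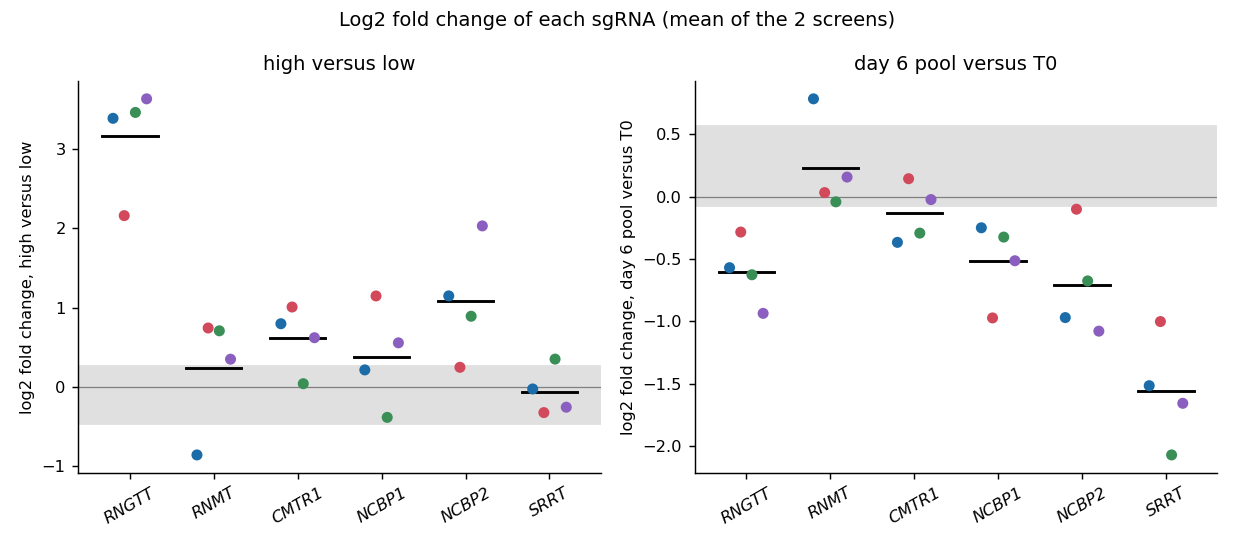
Mean log2 fold change of each sgRNA over the 2 screens (points, sgRNAs 1 to 4 from left to right) and the mean over the 4 sgRNAs (black lines) in high versus low and in the day 6 pool versus T0, with the 5% to 95% range of 278 sgRNAs without a target in gray. *RNGTT* sgRNAs lie at 2.16 to 3.63 in high versus low, and *SRRT* sgRNAs at −2.07 to −1.0 in the pool versus T0.

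The 6 genes thus differed in which of the 2 measures moved. *SRRT* had the lowest value against T0 (−1.56) and the lowest in high versus low (−0.07), *RNGTT* had the highest in high versus low (3.16) with a value against T0 (−0.60) that overlapped between screens with those of *NCBP1* and *NCBP2*, and *CMTR1* was higher in the high gate (0.61) with a pool close to T0 (−0.14). Over the log2 values of the 8 libraries, each screen centred on its own mean, the Euclidean distance between *RNGTT* and the other 5 genes was 2.17 to 3.30, and *NCBP2* was the nearest of them, at rank 231 among all genes. *NCBP1* and *NCBP2*, whose products form 1 complex, were 0.85 apart, and *NCBP2* ranked 4886 among the genes near *NCBP1*. *CMTR1* was nearer to *NCBP1*, at 0.64.

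None of the 6 genes was among the 2 genes nearest to another of them by this distance. Nearest to *RNGTT* were *MED8*, a Mediator subunit, at 0.44 and *CUL1*, the cullin of SCF ubiquitin ligases, at 0.46, where the median distance of all genes was 3.48. Nearest to *NCBP2* were *PPP1R10*, a regulatory subunit of protein phosphatase 1 in the nucleus, at 0.38 and *RACK1*, a scaffold protein of the small ribosomal subunit, at 0.38. Nearest to *NCBP1* were *LIMS4*, which has near-identical copies and is uncertain for that reason, at 0.21 and *U2SURP*, a splicing factor bound to the U2 particle, at 0.22. *CMTR1* was nearest to *NASP*, a histone chaperone, and *POT1*, a telomere protein, *SRRT* to *TUBGCP5*, of the gamma-tubulin ring complex, and *ATP6V1G1*, of the vacuolar proton pump, and *RNMT* to *MIER3* and *LYPLAL1*. The likeness is over 8 libraries of 2 screens and has no test.

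Other genes of cap formation, cap binding and cap removal were taken from 3 lists of 20 genes in all. Like the 6 genes, these lists were chosen with earlier results of the screen known, so their calls in high versus low are a description too and are given without p-values. Their adjusted p-values against T0 do not allow for that choice either. Of 4 others in cap formation, 1 was called higher and 1 lower in high versus low, where 5.25% of all genes were called higher and 2.73% lower. *TGS1*, which adds further methyl groups to the caps of small nuclear RNAs, had 0.57, and *PCIF1*, which methylates a first adenosine next to the cap, had −0.40. Only *TGS1* of the 4 was lower in the pool than in T0 (−0.36, limma adjusted p = 0.0174), where 8.35% of all genes were, and *RAMAC*, the activating subunit of RNMT, and *CMTR2*, which methylates the second transcribed nucleotide, were called in neither comparison. The median of the 4 in high versus low was 0.01, beside 0.50 for the 6 cap genes and −0.01 over all genes.

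Of 5 partners of the nuclear cap-binding complex, 2 were called higher and 1 lower between the gates (5.25% and 2.73% of all genes), and these 3 were lower in the pool than in T0 (8.35% of all genes). *ALYREF*, an export adaptor, had 1.50 in high versus low and −1.14 against T0 (limma adjusted p = 5.29e-10). *PHAX*, the export adaptor of small nuclear RNAs, had 1.45 and −0.42 (limma adjusted p = 0.00273). *ZC3H18*, which links the cap-binding complex and SRRT to RNA degradation, had the opposite sign between the gates, −0.99, with −0.32 against T0 (limma adjusted p = 0.0312). Neither *NCBP3* nor *SNUPN*, the import adaptor for capped small nuclear RNAs, was called in either comparison.

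Of 11 genes of cap removal and the exonucleases that follow it, none was called higher and 2 were called lower in high versus low, against 5.25% higher and 2.73% lower of all genes. *XRN2*, the nuclear exonuclease, had −1.01 and *EDC4*, a scaffold of the decapping enzyme, had −0.77. None of the 11 passed against T0, where 8.35% of all genes were lower and 2.54% higher. Their medians were −0.07 in high versus low and 0.04 against T0, where the partners had 0.34 and −0.32 and the 6 cap genes 0.50 and −0.56.

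**Figure D4:**
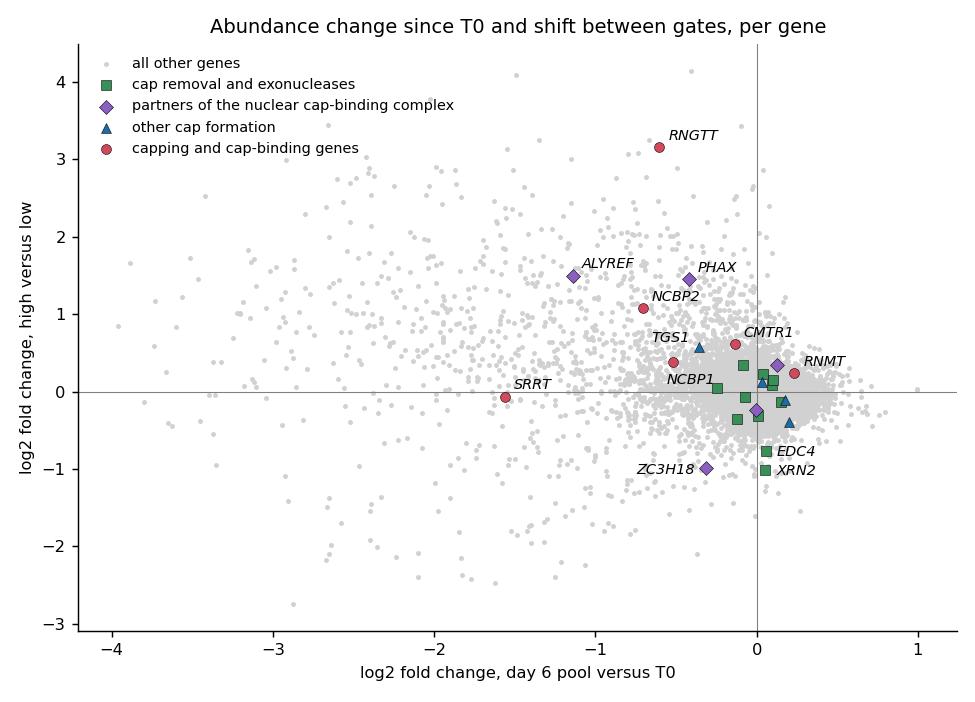
Gene-level log2 fold change in high versus low (vertical) against that in the day 6 pool versus T0 (horizontal), each the mean of 2 screens, for the 6 capping and cap-binding genes (red circles), 3 lists of related genes and all other genes (gray). *RNGTT* lies at −0.60 and 3.16, *SRRT* at −1.56 and −0.07, and *XRN2* and *EDC4* lie below 0 on the vertical axis and near 0 on the horizontal axis.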

How the data were processed

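The authors counted the reads of each sgRNA with MAGeCK. The deposited counts are unnormalized, with a column for each lane, and 4 columns that matched no sample were not used. Lanes were summed, since chi-square values per degree of freedom were 1.02 to 1.03 between lanes and 5.76 to 7.34 between screens. The sgRNA sequences and their cut sites were not analysed here.

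For genes, each library was scaled to the mean of all totals, log2 was taken after adding a pseudocount of 1, fold changes were computed within each screen and averaged over sgRNAs, and limma 3.58.1 (R 4.3.3) tested the mean of 2 screens against 0, with Benjamini-Hochberg adjustment over 18659 entries. The variance of each gene was moderated by limma, with 10.2 prior degrees of freedom in high versus low and 23.6 in the day 6 pool versus T0. The sources used here name neither scaling nor pseudocount, and core-essential genes, which the study filtered out, were kept. Fold changes within each screen act as a block on the screen, since the study states that it was performed independently both times. Deviations of same-numbered sorted libraries correlated at 0.103 to 0.139, and those of T0 with sorted libraries at 0.075 to 0.083. Single sgRNAs were tested with edgeR 4.0.16 (TMM, screen as a term), with DESeq2 1.42.0 as an alternative. The tests were tried on simulated data. Gene positions are from GENCODE release 44 (GRCh38), which named 18585 of 18638 identifiers. All 6 genes were named, with every sgRNA, and those of the 3 related lists that passed a gene test, with 2 neighbors per gene by distance. The genes and lists were chosen with earlier results of these data known.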

Additional observations from a re-analysis of the deposited data

How the results depend on the processing

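No alternative reversed the direction of a called value of the 6 genes. Single libraries were left out in limma on libraries with the screen as a term, not in the fit on fold changes that gave the main counts, so 2 choices differ from the main analysis. Complete, that fit called 1212 genes in high versus low (1487 in the main analysis), 385 in low versus medium (506), 4 in low plus high minus 2 times medium (7) and 1550 against T0 (2029), the last by weighting log2 values. Leaving out 1 library gave 642 to 1487, 31 to 506, 0 to 91 and 985 to 1504 genes in these comparisons. The edgeR fit without 1 library called 1844 to 3401 sgRNAs in high versus low (3346 with all) and 3398 to 5240 against T0 (5426 with all). The 2 settings with 0 genes in limma left out a low library and had 1210 and 1154 genes at an unadjusted p under 0.05. With the median over sgRNAs 824 genes were called in low versus medium, 673 in high versus medium (334 in the main analysis) and 241 in low plus high minus 2 times medium. The last count was 35 when centred on sgRNAs without a target, 82 with a pseudocount of 5 reads and 100 with sgRNAs of at least 50 reads. Without the replicate block, the fit on libraries called 2 genes in it and 258 in low versus medium. Dropping the block changed no call of the 6 genes between the fits on libraries, both of which also called *NCBP1* in high versus medium, and left 11 of the 24 sgRNAs called in each test. Centring on sgRNAs without a target called 4850 genes against T0. The share of calls against T0 that were higher was 23.3%, and 9.94% on libraries with the block. DESeq2 called 2188 sgRNAs in high versus low. Leaving out a whole screen gave the other screen's values without a test. The causes were not tested. Medians of 260 to 356 reads per sgRNA and 2 screens limit the precision, most of all for *RNMT* sgRNA 1.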
